A study of Mus musculus with 6 samples.

Results

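Condensin and cohesin were described here through 10 genes in RAW264.7, a macrophage-like line from mouse. The members were taken by gene symbol from a list of core subunits, 5 of condensin (Smc2, Smc4, Ncaph, Ncapd2 and Ncapg) and 5 of cohesin (Smc1a, Smc3, Rad21, Stag1 and Stag2). All 10 listed genes were found among the 10780 protein-coding genes of the deposited table, and all 10 were among the 10014 genes tested. The cells were compared by RNA sequencing in 3 groups. Those were cells treated with LPS (lipopolysaccharide from the outer membrane of bacteria) at 10 ng/ml together with Sal-B at 50 μmol/L, cells given LPS at 10 ng/ml alone, and untreated control cells. Each group had 2 libraries, numbered replicate 2 and replicate 3. No group had Sal-B without LPS, and the sources used here give neither a treatment time nor the full name of Sal-B. All groups are of the same line, with no genotype or transgene named. The labels do not say whether the libraries of a group came from separate cultures, so each p-value reflects no more than the spread of these libraries.

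Condensin and cohesin are ring-shaped ATPases built on a pair of SMC proteins, whose long coiled coils meet at a hinge and whose ATPase heads are bridged by a kleisin subunit. Condensin pairs Smc2 with Smc4 and compacts chromosomes for mitosis. Both proteins serve condensin I, whose kleisin is Ncaph and whose HEAT-repeat subunits are Ncapd2 and Ncapg, and also condensin II, which has its own set of the other subunits. Cohesin pairs Smc1a with Smc3, uses Rad21 as its kleisin and carries either Stag1 or Stag2. It holds sister chromatids together until separase cuts Rad21, and in interphase it extrudes the chromatin loops that stop at Ctcf. Transcripts of condensin I subunits are known to be more abundant in dividing than in resting cells, whereas cohesin is also used by cells that do not divide.

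Expression was deposited as FPKM (fragments normalised by the length of the transcript and by all fragments of the library), so that levels can be set beside each other between genes. A library had 8639 to 9847 genes with at least 1 FPKM, and the FPKM totals of the libraries lay between 309767 and 374371. The log2 difference between the replicates of a group had an SD over genes of 0.19 in the LPS plus Sal-B pair, 0.27 in the LPS pair and 0.44 in the control pair, which spread the most. Of the 10 members, 9 were higher in control replicate 2 than in control replicate 3, by a median of 0.26 on the log2 scale over all 10, and Stag2 was the exception. All 9 macrophage markers listed were in the table, and their summed level was 713 and 725 FPKM with LPS plus Sal-B, 1551 and 1549 FPKM with LPS and 1927 and 1454 FPKM in control, most of it from Cd68, Lyz2 and Cd14. Single markers went both ways. For LPS plus Sal-B over LPS 1 of 9 rose (Itgam, log2 change 0.54, adjusted p = 0.006, limma) and 6 fell, against 10.5% and 31.8% of all genes. With libraries at the same median 1 rose and 4 fell there, against 1766 and 2020 of 10014 genes. After quantile scaling 1 rose and 3 fell. Most of the 6 falls were not called once any treated library was left out, which leaves 1 library in that group. The rise of Itgam was also lost in some of those fits, with log2 changes of 0.51 to 0.58 when any library was left out. With LPS over control 1 rose (Cd14, log2 change 1.31) and 4 fell (Csf1r, log2 change -1.74), against 14.2% and 48.9% of all genes. In that comparison 4 rose and 1 fell with libraries at the same median, where 2898 of 10014 genes were called higher and 2649 lower. None of the 5 fibroblast, 4 epithelial or 5 lymphocyte markers was in the table.

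The promoters of members from both complexes are shown first, so that the changes of the members can be read beside the letters in front of their start sites. RefSeq windows for GRCm38.p6 matched 7 of the 10 members, without Smc4, Rad21 and Stag2. Each window ran from 250 bases before the start to 50 after it. It was searched on both strands for the CCAAT box, spelled CCAAT, and for the cell cycle homology region or CHR, spelled TTTGAA in some genes and TTTAAA in others. It was also searched for E2F-like letters, which were TTCCCGC and its variants with other bases in the middle, namely TTGGCGC, then the variant TTCGCGC and the variant TTGCCGC. No motif lies inside another. CCAAT boxes with CHR elements are a known arrangement in genes of the G2 and M phases, and E2F elements one in genes of the G1 to S transition. The 150 bases before the start are printed 5′ to 3′ on the gene's strand for a pair of condensin genes and a pair of cohesin SMC genes, with the searched letters in capitals. The windows lie at chr4:52439071-52439220 (+) for Smc2, chr5:45669775-45669924 (+) for Ncapg, chr19:53600246-53600395 (+) for Smc3 and chrX:152016278-152016427 (+) for Smc1a.
Smc2: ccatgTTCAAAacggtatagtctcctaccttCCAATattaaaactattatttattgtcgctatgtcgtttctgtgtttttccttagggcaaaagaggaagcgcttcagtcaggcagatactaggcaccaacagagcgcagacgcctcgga
Ncapg: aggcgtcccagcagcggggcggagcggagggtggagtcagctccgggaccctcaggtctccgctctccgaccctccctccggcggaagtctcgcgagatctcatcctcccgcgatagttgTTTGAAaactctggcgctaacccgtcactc
Smc3: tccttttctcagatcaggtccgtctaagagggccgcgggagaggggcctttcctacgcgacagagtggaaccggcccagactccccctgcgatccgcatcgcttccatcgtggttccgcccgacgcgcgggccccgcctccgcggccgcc
Smc1a: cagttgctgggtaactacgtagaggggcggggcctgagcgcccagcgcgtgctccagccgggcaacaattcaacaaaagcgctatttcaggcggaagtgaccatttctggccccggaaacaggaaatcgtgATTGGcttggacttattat

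In the window of Smc2 the CCAAT box began at position -119 and a CHR at -145 relative to the start, and another CHR lay at position 27 after it. Ncapg had its CHR at -30 and a CCAAT box at -176, outside the stretch printed. Ncapd2 also had both motifs. Ncapd2 and Ncapg each had an E2F match as well, at -7 and at 32, and Ncaph had an E2F match and neither of the other motifs. A CCAAT box together with a CHR was thus found in 3 of the 4 condensin windows and in 0 of the 3 cohesin windows, against 10.7% of all 32851 RefSeq windows of that length. Smc1a had a CCAAT box and 1 E2F match, Stag1 had a CCAAT box and 2 E2F matches, and Smc3 had none of the letters searched. Of all windows, 37.4% held a CCAAT box, 27.6% a CHR and 9.57% an E2F match. The RefSeq start of Stag1 lies 45650 bases downstream of the deposited gene start, so its window is that of an inner start site. These matches describe letters, and with so few windows they set no difference between the complexes.

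With LPS alone, every one of the 10 subunit genes was lower than in control. Levels with LPS ran between 23.6% of the control mean for Smc1a and 57.3% for Smc4, and the LPS libraries lay below the control libraries for all 10, as they did for 60.8% of all genes tested. All 5 condensin genes and all 5 cohesin genes fell at an adjusted p under 0.05 (limma on log2(FPKM + 1), Benjamini-Hochberg adjustment over the 10014 genes tested). Falls were common, since 48.9% of all genes were called lower and 63.1% were called in either direction. The median log2 change was -1.14 over the condensin members and -1.40 over the cohesin members, beside -0.40 over all genes tested. In these bulk samples fewer cells in division and less RNA per cell cannot be told apart.

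Among the SMC ATPase genes Smc4 led. Smc4 (chromosome 3, 69004738 to 69034623, plus strand of GRCm38) was the most abundant member in all 6 libraries, with 43.3 and 49.9 FPKM in LPS libraries, against 82.9 and 79.7 FPKM in control libraries. Its partner Smc2 (chromosome 4, 52439243 to 52488260, plus strand) had 15.2 and 14.7 FPKM in LPS libraries, against 35.5 and 26.6 FPKM in control libraries. The log2 change was -0.79 ± 0.10 for Smc4 (SE, adjusted p = 0.00136, limma) and -0.99 ± 0.15 for Smc2 (SE, adjusted p = 0.00255, limma). The cohesin SMC genes had lower log2 changes than these. Smc1a (chromosome X, 152016428 to 152062694, plus strand) had 10.2 and 11.04 FPKM in LPS libraries and 52.9 and 37.2 FPKM in control libraries, a log2 change of -1.96 ± 0.17 (SE, adjusted p = 0.000539, limma). Smc3 (chromosome 19, 53600398 to 53645833, plus strand) had 14.1 and 14.9 FPKM in LPS libraries and 44.7 and 35.6 FPKM in control libraries, a log2 change of -1.40 ± 0.13 (SE, adjusted p = 0.000587, limma). Smc1a had the lowest log2 change of the 10, at percentile 2.08 of all genes tested.

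The kleisin genes, whose products close the rings, both fell. Ncaph (chromosome 2, 127103809 to 127133954, minus strand) had 4.90 and 4.80 FPKM in LPS libraries, against 20.8 and 17.5 FPKM in control libraries. Its log2 change was -1.78 ± 0.11 (SE, adjusted p = 0.000294, limma). Rad21 (chromosome 15, 51962240 to 51991747, minus strand) had 19.0 FPKM in both LPS libraries, against 70.4 and 62.9 FPKM in control libraries. Its log2 change was -1.75 ± 0.10 (SE, adjusted p = 0.000226, limma). The LPS mean was 25.3% of control for Ncaph and 28.5% for Rad21.

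Among the remaining condensin subunits, which bind the kleisin through HEAT repeats, Ncapd2 (chromosome 6, 125168007 to 125191701, minus strand) had 6.29 and 6.45 FPKM in LPS libraries and 25.6 and 22.5 FPKM in control libraries. Ncapg (chromosome 5, 45669919 to 45700546, plus strand) had 7.31 and 6.77 FPKM in LPS libraries and 19.3 and 14.5 FPKM in control libraries. Ncapd2 fell by 1.76 ± 0.10 on the log2 scale (SE, adjusted p = 0.000235, limma) and Ncapg by 1.14 ± 0.15 (SE, adjusted p = 0.00162, limma). The 3′ end of Ncapg shares 3366 bases with Lcorl on the opposite strand. The sources used here do not say whether counting used strand, so reads there may belong to either gene.

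The alternative cohesin subunits Stag1 and Stag2, of which a cohesin ring carries only 1, were lower as well. Stag1 (chromosome 9, 100597798 to 100959375, plus strand) had 2.70 and 2.43 FPKM in LPS libraries, against 6.001 and 4.76 FPKM in control libraries. Stag2 (chromosome X, 42149317 to 42277185, plus strand) had 12.9 and 13.2 FPKM in LPS libraries, against 23.9 and 26.1 FPKM in control libraries. Stag2 was the more abundant of the pair in every library. The log2 change was -0.83 ± 0.13 for Stag1 (SE, adjusted p = 0.00321, limma) and -0.88 ± 0.09 for Stag2 (SE, adjusted p = 0.000817, limma).

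The scaling between libraries sets how deep these falls read. With every library set to the same median, the all-gene median change with LPS was 0.01 in place of -0.40, and the 10 members still fell, by 0.29 for Smc4 up to 1.47 for Smc1a on the log2 scale. Only the fall of Stag1 missed the threshold under a scaling, with a log2 change of -0.34 and an adjusted p of 0.0625 (limma) after quantile scaling. Leaving out any 1 of the 6 libraries kept all 10 calls, the highest adjusted p being 0.0255 for Stag1. When each treated pair was averaged into 1 value, so that the control pair alone gave the spread, Smc2, Smc4, Ncapg, Stag1 and Stag2 missed the threshold, with adjusted p up to 0.0918 (limma).

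**Figure D1:**
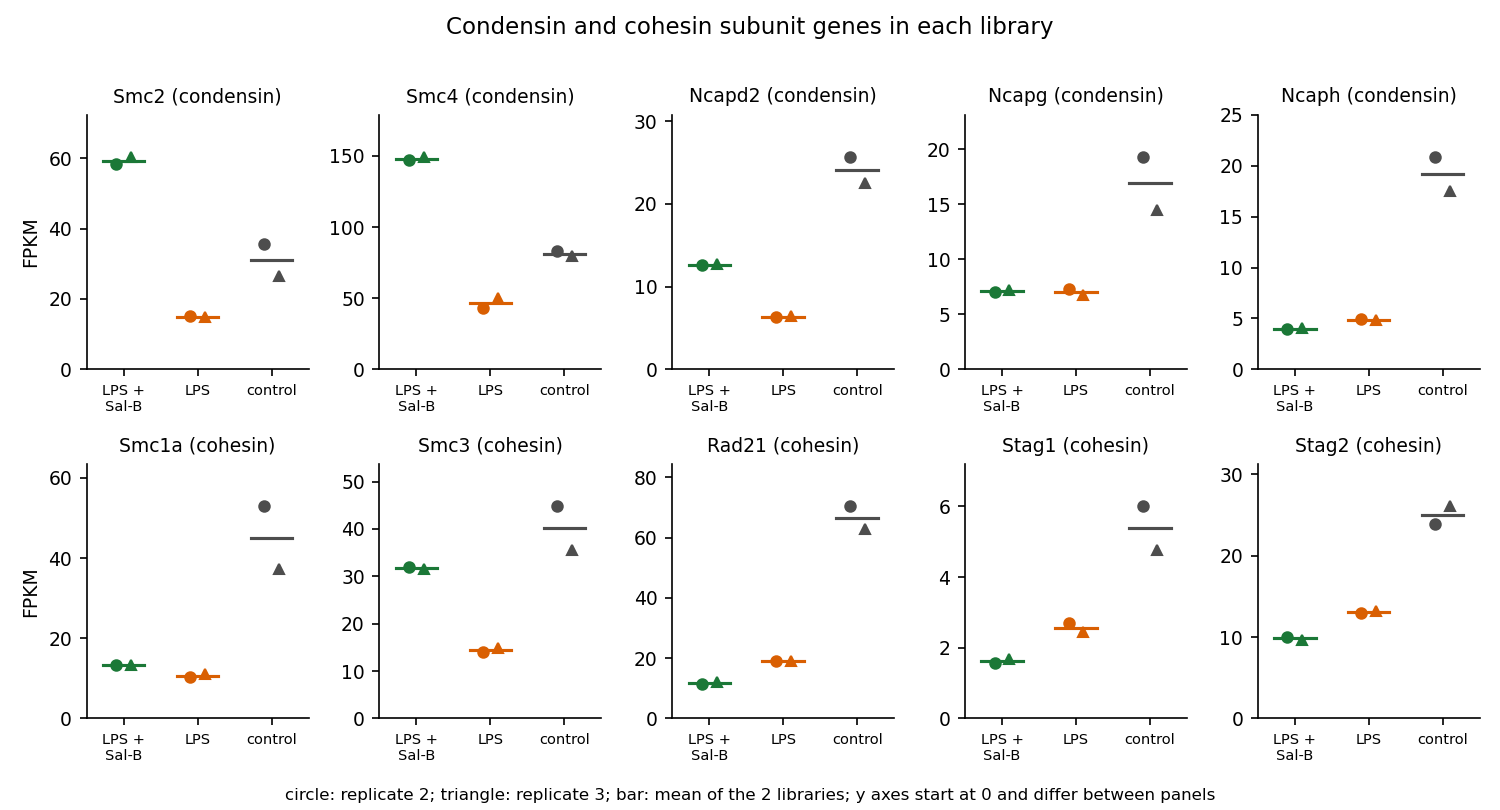
FPKM of the 10 subunit genes in each of the 6 libraries, with a panel per gene, an axis from 0 in each panel and the groups ordered LPS plus Sal-B, LPS and control. Circles are replicate 2, triangles replicate 3 and bars the means of 2 libraries. Smc2 and Smc4 stand above control with LPS plus Sal-B, whereas Rad21 is lower there than with LPS, at 11.4 and 12.2 FPKM against 19.0 FPKM in both LPS libraries.

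When Sal-B was given with LPS, the members no longer moved together, and they divided within each complex. Relative to LPS alone, Smc2, Smc4 and Ncapd2 of condensin rose, while Ncapg and Ncaph did not pass the threshold. In cohesin Smc3 rose, Rad21, Stag1 and Stag2 fell, and Smc1a did not pass the threshold. Over all genes tested 10.5% were called higher, 31.8% lower and 42.3% in either direction, so the 3 of 5 condensin genes and 1 of 5 cohesin genes called higher stood against a background in which rises were the less frequent call. The median log2 change was 0.89 over the condensin members and -0.38 over the cohesin members, beside -0.22 over all genes. This comparison uses the same LPS libraries as the one with control, so the values of the comparisons are given side by side and not related to each other.

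Smc2 had 58.4 and 60.3 FPKM in LPS plus Sal-B libraries, against 15.2 and 14.7 FPKM in LPS libraries. The mean was 3.96 times that with LPS, and the log2 change of 1.92 ± 0.15 (SE, adjusted p = 0.00174, limma) ranked 8 from the top among the 10014 genes. Smc4 had 147 and 149 FPKM in LPS plus Sal-B libraries, against 43.3 and 49.9 FPKM in LPS libraries. Its mean was 3.18 times that with LPS, and the log2 change of 1.65 ± 0.10 (SE, adjusted p = 0.00129, limma) ranked 29. Both condensin SMC genes were thus among the genes with the largest rises of the table.

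Smc3 had 31.9 and 31.5 FPKM in LPS plus Sal-B libraries, against 14.1 and 14.9 FPKM in LPS libraries. It rose by 1.08 ± 0.13 on the log2 scale (SE, adjusted p = 0.00328, limma), rank 198 of the genes tested. Its partner Smc1a had 13.3 FPKM in both LPS plus Sal-B libraries, against 10.2 and 11.04 FPKM in LPS libraries. The log2 difference of 0.30 for Smc1a did not pass the threshold (95% interval -0.13 to 0.73, adjusted p = 0.208, limma). It did pass without control replicate 2 (adjusted p = 0.0102) or control replicate 3 (adjusted p = 0.00987, limma), whose spread otherwise enters the error. It also passed when the control libraries were left out of the fit (adjusted p = 0.0113) and with libraries at the same median, where the log2 difference was 0.54 (adjusted p = 0.0467, limma). So 3 of the 4 SMC genes of both complexes were called higher, and the other, Smc1a, did not pass.

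The kleisins did not follow the SMC genes. Rad21 had 11.4 and 12.2 FPKM in LPS plus Sal-B libraries, against 19.0 FPKM in both LPS libraries. Rad21 fell by 0.64 ± 0.10 on the log2 scale (SE, adjusted p = 0.00583, limma). Without LPS plus Sal-B replicate 2 the adjusted p was 0.0658 (limma, where the lone library is assumed to vary like the other groups), and the call held when any other library was left out and under each scaling. Ncaph had 3.99 and 4.02 FPKM in LPS plus Sal-B libraries and 4.90 and 4.80 FPKM in LPS libraries. Its log2 difference of -0.23 lay within a 95% interval of -0.51 to 0.06 (adjusted p = 0.162, limma). Without control replicate 2 or control replicate 3 it passed at an adjusted p of 0.0278 or 0.0273 (limma), and without both at 0.0326, whereas at the same median the log2 difference was -0.02 (adjusted p = 0.872, limma).

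The HEAT-repeat subunits of condensin I divided too. Ncapd2 had 12.6 and 12.7 FPKM in LPS plus Sal-B libraries, against 6.29 and 6.45 FPKM in LPS libraries, and rose by 0.89 ± 0.10 on the log2 scale (SE, adjusted p = 0.00291, limma). Ncapg had 7.06 and 7.18 FPKM in LPS plus Sal-B libraries and 7.31 and 6.77 FPKM in LPS libraries. Its groups overlapped, and its log2 difference of 0.02 had a 95% interval of -0.35 to 0.38 (adjusted p = 0.944, limma).

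Stag1 had 1.56 and 1.69 FPKM in LPS plus Sal-B libraries, against 2.70 and 2.43 FPKM in LPS libraries. Stag2 had 10.1 and 9.64 FPKM in LPS plus Sal-B libraries, against 12.9 and 13.2 FPKM in LPS libraries. As deposited, Stag1 fell by 0.44 ± 0.13 (SE, adjusted p = 0.0424, limma) and Stag2 by 0.38 ± 0.09 on the log2 scale (SE, adjusted p = 0.0230, limma). Those were the weakest calls among the members. Neither passed when libraries were set to the same median, where the log2 changes were -0.29 for Stag1 (adjusted p = 0.109) and -0.15 for Stag2 (adjusted p = 0.264, limma). Nor did either pass when LPS replicate 2, LPS replicate 3, LPS plus Sal-B replicate 2 or LPS plus Sal-B replicate 3 was left out, with adjusted p up to 0.215 for Stag1 and 0.161 for Stag2 (limma).

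The rises of Smc2, Smc4, Ncapd2 and Smc3 passed the threshold under each scaling and without any 1 library, the highest adjusted p then being 0.0418 for Ncapd2 and Smc3 (limma). With each treated pair averaged into 1 value and the spread taken from the control pair, 0 of 10 members were called by limma, the lowest adjusted p being 0.32 for Smc2 and Smc4. The longest coding transcripts of Smc2, Smc4 and Smc3 have 39.7%, 40.2% and 42.3% GC, against a median of 49.9% over 9959 tested genes, while that of Ncapd2 has 54.0%. Log2 changes with LPS plus Sal-B over LPS were related to GC across genes with r = 0.24, where genes are not independent replicates. After a smooth trend on GC and length was removed from each library, Smc2 rose by 1.94, Smc4 by 1.73, Smc3 by 1.12 and Ncapd2 by 0.71 on the log2 scale. Stag2, at 38.1% GC, and Ncapg, at 39.8%, then had log2 changes of -0.36 and 0.13. The summed macrophage markers, given above, also differed between these groups, and their part in these changes was not tested.

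**Figure D2:**
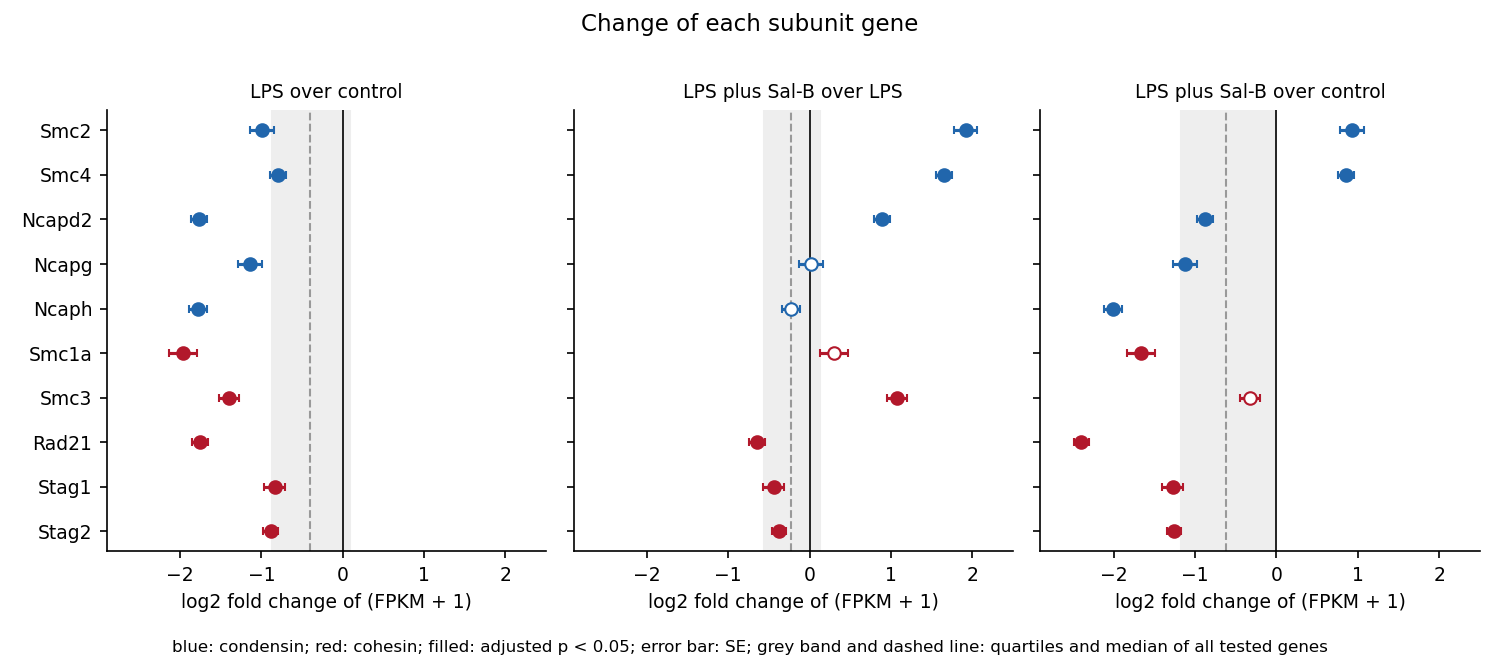
Log2 change of the 10 subunit genes in the 3 comparisons, on the log2(FPKM + 1) scale, with condensin in blue and cohesin in red. Bars are standard errors, filled points passed an adjusted p of 0.05 (limma), and the dashed line and grey band give the median and quartiles of all genes tested. With LPS over control all points are filled and lie between -1.96 and -0.79, whereas with LPS plus Sal-B over LPS Smc2 lies at 1.92 and Rad21 at -0.64.

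Set against untreated control, LPS plus Sal-B left the condensin SMC genes higher and most other members lower. Smc2 was at 191% and Smc4 at 182% of the control mean. Their log2 changes were 0.93 ± 0.15 for Smc2 (SE, adjusted p = 0.00230, limma) and 0.86 ± 0.10 for Smc4 (SE, adjusted p = 0.00066, limma). With the treated pairs averaged, Smc2, Smc4 and Ncapd2 missed the threshold at an adjusted p of 0.0637, 0.0503 and 0.0517 (limma). The other 3 condensin genes and 4 of the 5 cohesin genes were called lower, in a table where 14% of genes were called higher, 58.8% lower and 72.8% in either direction. Rad21 was the furthest below control, with 11.4 and 12.2 FPKM in LPS plus Sal-B libraries against 70.4 and 62.9 FPKM in control libraries, a log2 change of -2.40 ± 0.10 (SE, adjusted p = 8.13e-05, limma).

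Ncaph fell by 2.01 ± 0.11 (SE, adjusted p = 0.000111, limma) and Smc1a by 1.66 ± 0.17 on the log2 scale (SE, adjusted p = 0.000492, limma), to 20.9% and 29.6% of the control mean. Stag1 stood at 30.2%, Stag2 at 39.4%, Ncapg at 42.2% and Ncapd2 at 52.5% of control. Smc3 was the member closest to control at 78.9%, with a log2 difference of -0.32 (95% interval -0.64 to -0.01, adjusted p = 0.0628, limma). That of Smc3 was 0.41 with all libraries at the same median (adjusted p = 0.0246), and -0.49 without control replicate 3 (adjusted p = 0.00173, limma). Ncapd2 lost its call at the same median, with a log2 difference of -0.16 (adjusted p = 0.167, limma), where the all-gene median was -0.02 in place of -0.63.

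The order of the subunits by FPKM differed with treatment. In LPS plus Sal-B libraries Smc4 (148 ± 1.56 FPKM) and Smc2 (59.3 ± 1.35 FPKM) led, followed by Smc3 (31.7 ± 0.252 FPKM), Smc1a (13.3 ± 0.00689 FPKM), Ncapd2 (12.6 ± 0.0867 FPKM) and Rad21 (11.8 ± 0.603 FPKM; SD, n = 2 each). In LPS libraries Smc4 (46.6 ± 4.67 FPKM) was followed by Rad21 (19.0 ± 0.0499 FPKM), Smc2 (15.0 ± 0.309 FPKM) and Smc3 (14.5 ± 0.626 FPKM; SD, n = 2 each), the last pair with overlapping libraries. In control libraries Smc4 (81.3 ± 2.28 FPKM) was followed by Rad21 (66.6 ± 5.30 FPKM), Smc1a (45.0 ± 11.1 FPKM), Smc3 (40.2 ± 6.49 FPKM) and Smc2 (31.0 ± 6.34 FPKM; SD, n = 2 each). There Smc1a and Smc3 overlapped, as did Stag2 with Ncapd2 and Ncaph with Ncapg. Stag1 was the least abundant member in every library, at 1.63 ± 0.0972 FPKM with LPS plus Sal-B, 2.57 ± 0.186 FPKM with LPS and 5.38 ± 0.875 FPKM in control (SD, n = 2 each).

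Ratios of FPKM within a library do not depend on a factor that scales the whole library, and they show which subunits kept their proportion. Smc4 stayed between 2.33 and 3.38 times Smc2 in all 6 libraries, with the control range reaching across that of LPS plus Sal-B and part of that of LPS. The kleisin Ncaph was 0.0683 and 0.0666 of Smc2 in LPS plus Sal-B libraries, 0.323 and 0.325 in LPS libraries and 0.587 and 0.658 in control libraries. The 3 groups did not overlap, and Ncaph was lowest relative to its SMC partner with LPS plus Sal-B. Ncapg relative to Smc2 was 0.121 and 0.119 in LPS plus Sal-B libraries, 0.482 and 0.459 in LPS libraries and 0.542 and 0.546 in control libraries. For Ncapd2 the same ratio was 0.216 and 0.211 with LPS plus Sal-B, 0.414 and 0.438 with LPS and 0.722 and 0.848 in control. The SMC pair of condensin thus stood in larger excess over each of its condensin I partners with LPS plus Sal-B than in either other group.

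In cohesin the SMC partners themselves came apart. Smc3 was 2.39 and 2.36 times Smc1a in LPS plus Sal-B libraries, 1.37 and 1.35 times in LPS libraries and 0.846 and 0.956 times in control libraries. Rad21 was 0.357 and 0.389 of Smc3 in LPS plus Sal-B libraries, against 1.35 and 1.27 in LPS libraries and 1.57 and 1.77 in control libraries. Relative to Smc1a, Rad21 was 0.853 and 0.918 with LPS plus Sal-B, 1.86 and 1.72 with LPS and 1.33 and 1.69 in control. So the cohesin kleisin was below both SMC partners in FPKM with LPS plus Sal-B and above both in every other library. The ratio of Stag2 to Stag1 was 6.47 and 5.69 with LPS plus Sal-B, 4.80 and 5.44 with LPS and 3.99 and 5.47 in control, where LPS and control overlapped. With 2 libraries against 2 an exact permutation test cannot reach the threshold, so these ratios are given as values.

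**Figure D3:**
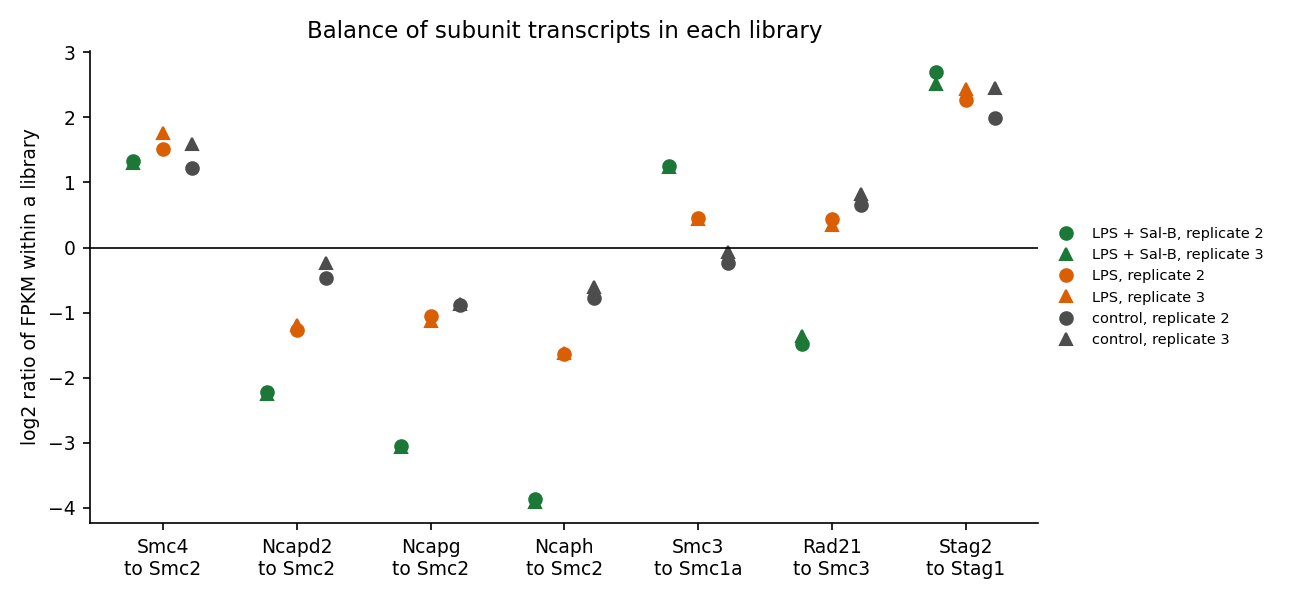
Log2 ratio of FPKM between partner subunits within each library, with LPS plus Sal-B in green, LPS in orange and control in grey. Circles are replicate 2 and triangles replicate 3. Ncaph to Smc2 is lowest with LPS plus Sal-B, at ratios of 0.0683 and 0.0666, and Smc3 to Smc1a is highest there, at 2.39 and 2.36.

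Averaged over members, condensin stood further above cohesin with LPS plus Sal-B than in the other groups. The mean log2(FPKM + 1) of the 5 condensin genes minus that of the 5 cohesin genes was 0.97 in both LPS plus Sal-B libraries, 0.11 and 0.10 in LPS libraries and 0.05 and 0.02 in control libraries. The change in this difference was 0.87 for LPS plus Sal-B over LPS, 0.07 for LPS over control and 0.94 for LPS plus Sal-B over control. The pooled SD within groups was 0.011, which reflects only the spread of these libraries and not the choice of members. At a filter of 5 FPKM, which drops Stag1, the value for LPS over control was 0.21. No test is given, since members are not replicates and were chosen with results known. The average hides the division inside each complex. For LPS plus Sal-B over LPS, the condensin log2 changes were 1.92 for Smc2, 1.65 for Smc4 and 0.89 for Ncapd2. Those of Ncapg and Ncaph were 0.02 and -0.23 and did not pass. In cohesin the higher Smc3 stands beside the lower Rad21, and beside Stag1 and Stag2, which were called lower as deposited but not under any scaling.

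Condensin II has its own kleisin and HEAT-repeat subunits, and all 3 were tested. With LPS 3 of 3 were called lower than control, as were 48.9% of all genes. Ncapg2 lost that call whenever a treated library was left out (adjusted p up to 0.147), at the same median (adjusted p = 0.158), after quantile scaling (0.244) and after the GC and length correction (0.0848, limma). Ncapd3 had the largest fall, with 5.28 and 5.07 FPKM in LPS libraries against 23.2 and 23.7 FPKM in control libraries and a log2 change of -1.99 ± 0.09 (SE, adjusted p = 0.000143, limma). With LPS plus Sal-B over LPS, 2 of 3 rose, against 10.5% of all genes. Ncapd3 rose by 0.45 ± 0.09 (SE, adjusted p = 0.0119) and the kleisin Ncaph2 by 0.39 ± 0.10 on the log2 scale (SE, adjusted p = 0.0236, limma), whereas Ncapg2 differed by 0.10 (adjusted p = 0.814). Both rises lost their call when any treated library was left out, with 0 of 3 called, and that of Ncaph2 also after the GC and length correction (adjusted p = 0.117, limma). All 3 genes were called below control with LPS plus Sal-B as deposited, against 58.8% of all genes called lower. The call of Ncapg2 was lost under each scaling and whenever a treated library was left out. That of Ncaph2 was lost at the same median (log2 difference -0.05, adjusted p = 0.658, limma), which left 1 of 3 called there. At the same median 3207 of 10014 genes were called lower than control.

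Genes that load cohesin onto DNA, release it or bound its loops were tested in 6 of 6 cases. With LPS 4 of them fell, the loader partner Mau2, the release factor Wapl, Pds5b and the boundary factor Ctcf, and 2 did not pass, Nipbl and the Wapl partner Pds5a. This share stood beside 48.9% of all genes called lower. The log2 changes of those 4 lay between -0.55 for Mau2 and -1.05 for Pds5b. At the same median 2 of 6 were called lower, near the share of all genes there, 2649 of 10014. Mau2 lost its call without LPS replicate 2, LPS replicate 3 or control replicate 3 (adjusted p up to 0.152). With LPS plus Sal-B over LPS 1 of 6 was called, against 42.3% of all genes in either direction, and Ctcf was called higher as well at the same median (log2 0.65, adjusted p = 0.0209, limma). The gene called as deposited was Nipbl, the protein that loads cohesin and drives its loop extrusion, with 30.8 and 32.0 FPKM in LPS plus Sal-B libraries, against 16.0 FPKM in both LPS libraries. Its log2 change was 0.93 ± 0.15 (SE, adjusted p = 0.00711, limma), and the adjusted p was up to 0.0581 without LPS replicate 2, LPS plus Sal-B replicate 2 or LPS plus Sal-B replicate 3. Nipbl was also higher than control (18.4 and 24.97 FPKM) by 0.53 ± 0.15 on the log2 scale (SE, adjusted p = 0.0214, limma), a call lost without LPS plus Sal-B replicate 2 or 3 (adjusted p up to 0.101). Wapl, at 13.1 and 13.2 FPKM with LPS plus Sal-B and 12.9 and 12.3 FPKM with LPS, differed by 0.06 (adjusted p = 0.756, limma), and Pds5a by -0.10 (adjusted p = 0.725, limma).

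Of 8 genes that establish or protect cohesion 7 were tested, and Dscc1 was below the filter. All 7 fell with LPS as deposited, against 48.9% of all genes, among them Sgo1, the shugoshin that guards centromeric cohesin, with a log2 change of -2.09 ± 0.17 (SE, adjusted p = 0.000468, limma). Cdca5 (sororin), which shields cohesin from Wapl, fell by 1.42 and Hdac8, which deacetylates Smc3, by 0.92 on the log2 scale. At the same median and after quantile scaling 5 of 7 were called, without Esco1 and Chtf18, against 2649 and 2660 of 10014 genes called lower. With LPS plus Sal-B over LPS 1 rose, Sgo2a by 0.63 ± 0.09 (SE, adjusted p = 0.00597), and 1 fell, the Smc3 acetyltransferase Esco1 by 0.87 ± 0.18 on the log2 scale (SE, adjusted p = 0.0154, limma). Over all genes 10.5% were called higher and 31.8% lower in that comparison. Esco1 had 0.777 and 1.54 FPKM in LPS plus Sal-B libraries, against 2.86 and 2.91 FPKM in LPS libraries. Esco2, which acetylates Smc3 in S phase, had 2.93 and 3.83 FPKM with LPS plus Sal-B and 2.33 and 2.71 FPKM with LPS and did not pass (adjusted p = 0.337, limma). Sgo2a lost its call without LPS plus Sal-B replicate 2 or 3 (adjusted p up to 0.0646), and Esco1 without LPS replicate 2, LPS replicate 3 or LPS plus Sal-B replicate 2 (up to 0.0789, limma). Among the falls with LPS, Chtf18 did not pass whenever a treated library was left out (adjusted p up to 0.114).

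The cleavage genes Espl1 (separase), Pttg1 (securin, its inhibitor) and Cdc20, the activator of securin destruction, all fell with LPS, with log2 changes of -1.38, -1.03 and -1.21 in that order, where 48.9% of all genes were called lower. Pttg1 lost this call at the same median (log2 difference -0.54, adjusted p = 0.125, limma). With LPS plus Sal-B over LPS, Espl1 rose by 0.64 ± 0.13 (SE, adjusted p = 0.0136) and Cdc20 by 0.42 ± 0.11 (SE, adjusted p = 0.0283), and Pttg1 fell by 0.94 ± 0.26 on the log2 scale (SE, adjusted p = 0.0333, limma). In that comparison 10.5% of all genes were called higher and 31.8% lower. Espl1 had 4.79 and 4.81 FPKM in LPS plus Sal-B libraries, against 3.09 and 2.39 FPKM in LPS libraries. The fall of Pttg1 did not pass under any scaling, and none of the 3 passed after the GC and length correction. Without single LPS or LPS plus Sal-B libraries 0 or 1 of the 3 genes was called higher, with adjusted p up to 0.0949 for Espl1, 0.167 for Cdc20 and 0.145 for Pttg1 (limma). The fall of Pttg1 with LPS did not pass without control replicate 3 (adjusted p = 0.0622). The 4 meiotic cohesin genes listed were not in the table.

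Partners of condensin in chromosome compaction also divided. Of 10 tested, 9 fell with LPS, against 48.9% of all genes. At the same median or after quantile scaling 7 fell, and Cdk1 and Mcph1 did not pass. Over all 10014 genes 2649 were called lower at the same median and 2660 after quantile scaling. Over LPS, 4 rose with LPS plus Sal-B, 2 fell and 4 did not pass, against 10.5% of all genes called higher and 31.8% called lower. Top2a, the topoisomerase that works with condensin on mitotic chromosomes, had 32.9 and 33.2 FPKM in LPS plus Sal-B libraries, 15.3 and 14.5 FPKM in LPS libraries and 57.4 and 48.1 FPKM in control libraries. It rose by 1.10 ± 0.11 over LPS (SE, adjusted p = 0.00235, limma) and as deposited was below control by 0.65 ± 0.11 on the log2 scale (SE, adjusted p = 0.00299, limma). At the same median its log2 difference from control was 0.09 (adjusted p = 0.474, limma), so neither the call nor its direction held there. Mki67, which coats mitotic chromosomes, rose over LPS by 0.66 ± 0.10 (SE, adjusted p = 0.00636) and the kinase Aurkb by 0.58 ± 0.13 (SE, adjusted p = 0.0173), while the cyclin Ccnb1 fell by 0.35 ± 0.10 on the log2 scale (SE, adjusted p = 0.0378, limma). The fall of Ccnb1 did not pass at the same median, where 5 of 10 were called higher and 0 lower, against 1766 and 2020 of 10014 genes. Without single LPS or LPS plus Sal-B libraries 1 or 2 of the 10 were called higher, Top2a in each case, with adjusted p up to 0.0607 for Mki67 and 0.109 for Aurkb (limma).

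The MCM helicase genes, whose products unwind DNA at replication forks, were all tested. With LPS plus Sal-B over LPS 0 of 6 were called by limma, where 10.5% of all genes were called higher and 31.8% lower, and at an unadjusted p under 0.05 there were 0 higher and 1 lower (Mcm4). Their summed level was 40.5 and 41.2 FPKM in LPS plus Sal-B libraries, 65.1 and 61.2 FPKM in LPS libraries and 188 and 86.9 FPKM in control libraries. The control libraries differed from each other more than the treated groups did. Without control replicate 2, and likewise without control replicate 3, 5 of 6 MCM genes were called lower with LPS plus Sal-B than with LPS. With LPS over control 3 of 6 fell as deposited, near the 48.9% of all genes. At the same median 1 of 6 fell, against 2649 of 10014 genes, and the calls changed with the library left out. With LPS plus Sal-B over control 5 of 6 fell, against 58.8% of all genes. At the same median 3 of 6 fell, against 3207 of 10014 genes, and the calls again changed with the library left out.

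**Figure D4:**
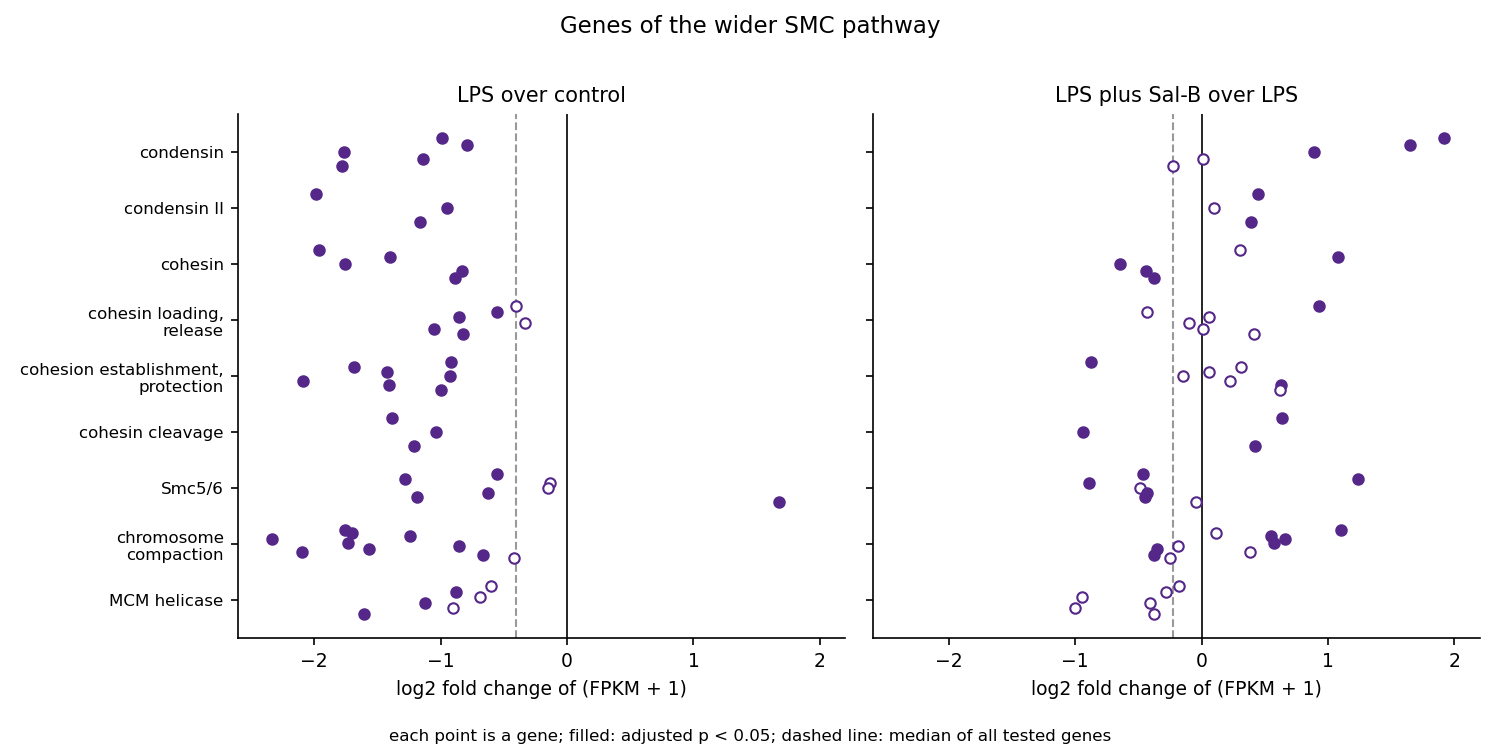
Log2 change of each tested gene of the subunit lists and the wider lists, for LPS over control and LPS plus Sal-B over LPS, on the log2(FPKM + 1) scale. Each point is a gene, filled where it passed an adjusted p of 0.05 (limma), and the dashed line is the median of all genes. With LPS over control the points lie mostly below the median of -0.40, and with LPS plus Sal-B over LPS the highest are Smc2 at 1.92, Smc4 at 1.65 and Smc6 at 1.24.

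The genes whose log2(FPKM + 1) profile was most like the members' were found by Pearson's r over the 6 libraries among 6918 genes of at least 5 FPKM in their highest group, the members themselves left out. With only 3 groups many genes share a profile, so these names describe likeness alone. For the condensin mean they were Nol8, 2210016L21Rik, Top2a, Tpr and Hmgb2, with r between 0.997 and 0.999. For the cohesin mean they were Ogfod3, Kif11, Uggt1, Xpot and Ap3b1, with r between 0.999 and 1.00. By member, the nearest profile was that of G3bp1 for Smc2, Ccdc191 for Smc4, Bub1b for Smc1a, Pptc7 for Smc3, Cep192 for Ncaph and Fam98a for Rad21. Ncapd2 was nearest to Pycr1, Ncapg to Cdt1, Stag1 to Api5 and Stag2 to Akr1e1, with r between 0.997 and 1.00 for all 10.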

How the data were processed

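The FPKM values were used as deposited by the authors. Per the submitters' processing notes, reads were handled with HISAT2 2.0.5, cutadapt and StringTie on GRCm38. Per the labels' protocols, libraries came from a stranded kit after poly(A) selection or rRNA depletion, without saying which library had which. No scaling between libraries is stated, and read counts were not used here.

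From these FPKM values log2(FPKM + 1) was computed. The 10014 genes that reached 1 FPKM in 2 or more libraries entered a single limma fit (limma 3.58.1, R 4.3.3, empirical Bayes with trend) of all 6 libraries in 3 groups, two-sided, with Benjamini-Hochberg adjustment over all genes and a threshold of 0.05. The fit was also run on simulated data in which few genes changed and libraries did not differ in scaling. Far more genes were called in these data, so that run does not show how well the fit works on them. Intervals are 95% intervals from the fit. The members and lists were chosen with earlier results of these data known, so no list has a p of its own.

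All 10 members were named. Any tested gene of condensin II, cohesin loading and release, establishment and protection, and cleavage could be named, and up to 4 genes of smallest p in the other lists. Smc6, Nsmce3, Cdk1, Mcph1 and the single macrophage markers were outside this rule and were named after their values were seen. GC and length came from GENCODE M21 (GRCm38), and promoters from RefSeq (GRCm38.p6). Alternative settings varied the scaling, the pseudocount, the filter, the replicate block, the libraries fitted, the trend and the treatment of pairs. A GC and length correction was added after seeing the data.

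Depth per library is unknown. The low FPKM values times length in 929 single-transcript genes shared a common step within 2% in only 3 to 11 of the 16 to 33 values looked at per library, too few to recover fragments, so no counting error is given. The numbers 2 and 3 were not shown to pair libraries across groups, since their deviations from the group means correlated by 0.014 (control and LPS), 0.0037 (control and LPS plus Sal-B) and 0.035 (LPS and LPS plus Sal-B) over genes.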

Additional observations from a re-analysis of the deposited data

How the results depend on the processing

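Of 537 values of single members under alternative settings, 494 kept their side of the threshold, 34 no longer passed and 8 newly passed. The other 1 reversed, Smc3 with LPS plus Sal-B over control (0.41 at the same median). A change of sign was counted as a reversal only where a value passed, so the 494 include sign changes of uncalled values. Among these was Ncapg for LPS plus Sal-B over LPS, at 0.02 in the main fit and down to -0.03 with a library left out. Averaging each treated pair had the widest effect. It left 2 condensin and 3 cohesin genes called for LPS over control (1581 genes in all), 0 and 0 for LPS plus Sal-B over LPS (0 genes in all, 1477 at an unadjusted p under 0.05), and 2 and 4 for LPS plus Sal-B over control (4000 genes in all). Cohesin genes called for LPS plus Sal-B over LPS numbered 4 as deposited, 2 with libraries at the same total, 2 after quantile scaling and between 1 and 5 with a library left out, and genes called between 1043 and 6245 in place of 4238. The condensin minus cohesin difference for LPS over control was 0.21 at a filter of 5 FPKM, which drops Stag1, and between 0.0601 and 0.0855 with a library left out. For LPS plus Sal-B over LPS it was 0.93 and 0.90 at pseudocounts of 0.1 and 0.5, 0.76 at the 5 FPKM filter, 0.88 at the same median and 0.85 after quantile scaling. For LPS plus Sal-B over control it was 1.00 and 0.97 at those pseudocounts, 0.97 at the filter, 0.96 at the same median and between 0.93 and 0.95 with a library left out. The cause of these shifts was not tested beyond what each setting removes.

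Higher and lower calls over all genes, as deposited and at the same median, numbered 1054 and 3184 against 1766 and 2020 for LPS plus Sal-B over LPS, and 1421 and 4898 against 2898 and 2649 for LPS over control. For LPS plus Sal-B over control they numbered 1399 and 5890 against 3180 and 3207. With the replicate number as a block, 3822 genes were called for LPS plus Sal-B over LPS, 6086 for LPS over control and 7195 for LPS plus Sal-B over control, and the only member call that the block changed was that of Stag1 for LPS plus Sal-B over LPS (adjusted p = 0.0592). Since depth is unknown, what it limits cannot be given; the members at the lowest levels are Stag1 (1.56 FPKM at least) and Ncaph (3.99 FPKM at least).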

Other observations

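The Smc5/6 complex, the SMC complex of DNA repair and replication stress, was tested in 7 of 7 genes and also divided between its SMC partners. Smc6 had 14.0 and 14.1 FPKM in LPS plus Sal-B libraries, 5.33 and 5.43 FPKM in LPS libraries and 16.6 and 12.6 FPKM in control libraries. It rose by 1.24 ± 0.14 on the log2 scale with LPS plus Sal-B over LPS (SE, adjusted p = 0.00293, limma) and passed without any 1 library, the highest adjusted p being 0.0382. Its partner Smc5 had 9.28 and 9.94 FPKM in LPS plus Sal-B libraries, 13.9 and 13.3 FPKM in LPS libraries and 19.2 and 21.6 FPKM in control libraries. As deposited Smc5 fell by 0.46 ± 0.10 (SE, adjusted p = 0.0166, limma), a call lost under each of the 3 scalings and without any 1 of the treated libraries (adjusted p up to 0.132). The ratio of Smc6 to Smc5 was 1.51 and 1.42 with LPS plus Sal-B, 0.384 and 0.407 with LPS and 0.861 and 0.584 in control, with no overlap between groups.

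Over the complex, 1 gene rose and 4 fell with LPS plus Sal-B over LPS, where 10.5% of all genes were called higher and 31.8% lower. Among the falling genes was the subunit Nsmce1 with 8.32 and 8.34 FPKM in LPS plus Sal-B libraries, against 16.8 and 15.8 FPKM in LPS libraries. Only Smc6 and 1 falling gene, Nsmce1, were called under each scaling. With LPS over control 4 of 7 fell and 1 rose, against 48.9% and 14.2% of all genes. At the same median 2 fell and 2 rose, against 2649 and 2898 of 10014 genes. There Smc5 and Nsmce3 lost their calls and Nsmce1 was called higher (log2 0.34, adjusted p = 0.021, limma). The gene that rose as deposited was Eid3, an alternative to Nsmce4a, which had 8.88 and 7.41 FPKM in LPS libraries and 1.88 and 1.84 FPKM in control libraries. The log2 change of Eid3 was 1.67 ± 0.12 (SE, adjusted p = 0.000332, limma), and with LPS plus Sal-B it stayed at 7.63 and 8.05 FPKM. Nsmce4a had 4.07 and 3.75 FPKM in LPS libraries against 10.6 and 9.72 FPKM in control libraries.

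Smc4 carries the microRNA genes Mir15b and Mir16-2 in its introns on the same strand. The deposited values are of protein-coding genes, so the microRNAs themselves were not analysed here.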
